A study of Drosophila melanogaster with 8 samples.

Results

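The elav5 single mutant was compared with the wild-type strain Canton-S in the dissected central nervous system of Drosophila melanogaster first instar larvae. Total RNA was sequenced from 2 elav5 libraries, 3 libraries of the elav5/fne double mutant and 3 Canton-S libraries. Both elav5 and fne are deletion knockout alleles, so elav5 larvae carry the elav deletion, elav5/fne larvae both deletions and Canton-S larvae neither. All flies were kept at 25 °C, and the larvae of each genotype were viable homozygotes picked by a visible marker. The comparison used 5 of the 8 libraries, the 2 of elav5 and the 3 of Canton-S. It kept the 9805 of 17807 listed genes that reached 1 CPM (reads of a gene scaled to a fixed library total) in at least 2 of those 5 libraries. A gene counted as outside the Canton-S range when both elav5 libraries lay above the highest, or both below the lowest, of the 3 Canton-S values. The labels state neither the sex of the larvae nor the genetic background of each line, so the deletion and any other difference between the lines cannot be told apart. Whether libraries of 1 genotype were made from different larvae is also not stated, and p-values then measure only the spread between these libraries, which may be technical.

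ELAV is an RNA-binding protein of the ELAV/Hu family, a standard marker of postmitotic neurons in flies. It acts in the nucleus on pre-mRNA, where it directs neuron-specific alternative splicing and lets transcripts run past proximal polyadenylation sites into long 3′ untranslated regions. FNE and RBP9 are its fly paralogs, and FNE is mostly cytoplasmic in neurons that have ELAV. A gene-level CPM adds up all transcripts of a gene, so the values below show RNA abundance and not which exon or 3′ end was used.

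The libraries held between 30038106 and 38056274 reads in genes, and 3 reads corresponded to between 0.0788 and 0.0999 CPM. Markers of neurons were abundant in every library. The summed CPM of 12 neuron markers was 16646 and 14936 in elav5, 8108 to 9308 in elav5/fne and 17766 to 18230 in Canton-S. The 12 include elav and fne, so part of the lower mutant sums comes from the deleted genes themselves. The elav5 libraries differed from each other in genes of other tissues. Summed muscle markers (20 genes) gave 3622 and 1479 CPM in elav5 replicates 1 and 2, against 1988 to 2390 CPM in Canton-S, and summed hemocyte markers (18 genes) gave 587 and 116 CPM in elav5, against 982 to 1465 CPM in Canton-S. In Canton-S and in elav5 replicate 1, most of the hemocyte sum came from the collagen IV genes vkg and Col4a1, given below. Genes of the dosage compensation system also set the genotypes apart. lncRNA:roX1, a noncoding RNA that coats the male X chromosome, reached 2987 and 3835 CPM in elav5 and 3671, 3555 and 3199 CPM in elav5/fne, against 1491, 1416 and 1444 CPM in Canton-S. Sxl, the female switch gene, had 276 and 247 CPM in elav5 and 239, 236 and 221 CPM in elav5/fne, against 447, 454 and 472 CPM in Canton-S. The part of larval sex or of other tissues in the results was not tested.

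The targeted gene was strongly reduced in both elav5 libraries, and its closest paralog was not. elav, at X:509235-523226 (BDGP6 annotation), had 33.4 and 24.4 CPM in elav5 and 53.2, 60.95 and 53.7 CPM in elav5/fne, against 602, 620.3 and 599 CPM in Canton-S (log2 difference -4.36, SE 0.13, limma adjusted p = 4.4e-06). All differences are elav5 minus Canton-S on the log2(CPM + 1) scale, and each adjusted p is from limma with Benjamini-Hochberg adjustment over all 9805 genes. The elav5 values lay far below the Canton-S range, and the remaining reads cannot be placed within the gene from these values. fne had 938 and 1129 CPM in elav5 and 141, 179 and 127 CPM in elav5/fne, against 959.6, 1045 and 1038 CPM in Canton-S. The elav5 and Canton-S values of fne overlapped (log2 difference 0.02, SE 0.15, limma adjusted p = 0.93). Rbp9, the third family member, had 12.4 and 11.8 CPM in elav5, 11.2, 14.7 and 28.8 CPM in elav5/fne and 7.14, 7.90 and 7.67 CPM in Canton-S. Both elav5 values of Rbp9 lay above the Canton-S range, but the difference did not pass the test (log2 difference 0.61, SE 0.32, limma adjusted p = 0.2). Rbp9 was called higher without elav5/fne replicate 3. Among the 8 tested genes nearest to elav, 4 on each side, svr was the one that passed. svr, a carboxypeptidase gene that ends just before elav at X:496446-509072, had 578 and 613 CPM in elav5 and 404, 389 and 445 CPM in Canton-S (log2 difference 0.53, SE 0.08, limma adjusted p = 0.0059). The well-studied splicing targets of ELAV did not pass the test at gene level, with 0 of 3 at an unadjusted p under 0.05 or called by edgeR or DESeq2. ewg, a transcription factor, had 256 and 209 CPM in elav5 and 229, 186 and 218 CPM in Canton-S (adjusted p = 0.42), and the adjusted p was 0.39 for Nrg, a cell adhesion protein, and 0.53 for arm, the fly beta-catenin. Nrg was called lower without elav5 replicate 1 (log2 difference -0.35, adjusted p = 0.021).

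Across the transcriptome, more genes were lower than higher in elav5. Of the 9805 genes, 903 rose (9.21%) and 1302 fell (13.3%) in elav5 at an adjusted p of at most 0.05, and for all of them both elav5 libraries lay outside the Canton-S range. Without a test, both elav5 libraries lay above the Canton-S range for 2176 genes (22.2%) and below it for 3180 genes (32.4%). The remaining 4449 genes had at least 1 elav5 value within the Canton-S range or values on both sides of it. A change of at least 1 log2 unit was reached by 282 of the genes that rose and 214 of those that fell. The excess of falls depended on the scaling. Of all calls, 41.0% were rises on the deposited CPM, but 49.4% with TMM scaling (1030 rises, 1056 falls), 51.3% with median-ratio scaling (1069 rises, 1014 falls), 51.7% with edgeR (1046 rises, 977 falls) and 52.96% with DESeq2 (1380 rises, 1226 falls) on the reads recovered from the CPM. Calls also depended on single libraries: leaving out Canton-S replicate 1 gave 447 rises and 649 falls, Canton-S replicate 2 gave 563 and 672, and elav5 replicate 2 gave 470 and 583. Whichever of the 8 libraries was left out, 308 rises and 400 falls remained called. The median log2 difference over all genes was -0.06. It was -0.09 for the 1618 genes of the X chromosome and -0.05 for the 8129 genes of the autosomes, and both elav5 libraries lay above the Canton-S range for 18.7% of the X genes and 22.9% of the autosomal genes.

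**Figure D1:**
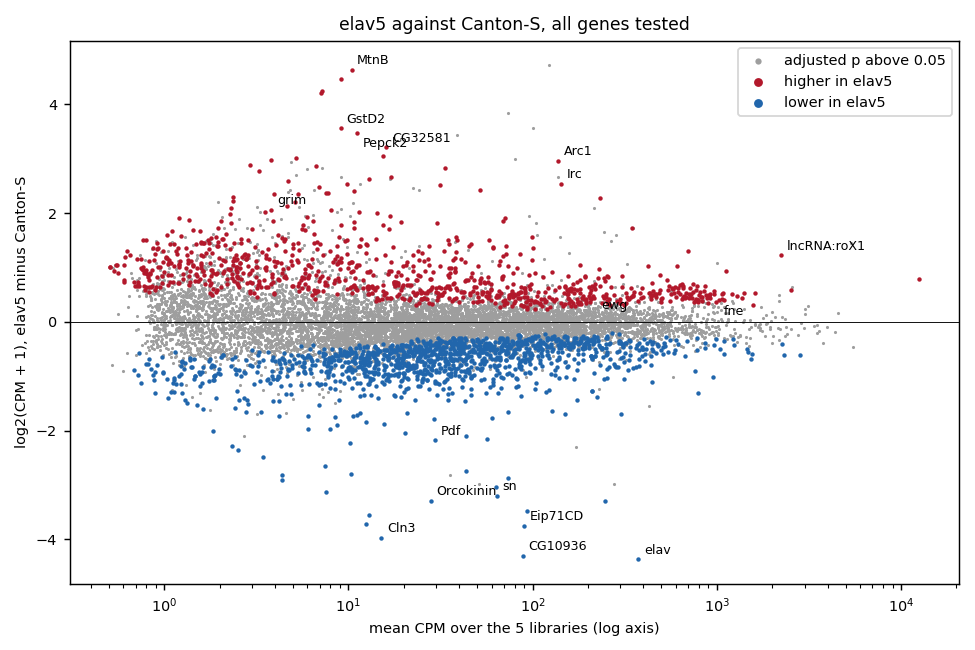
Log2(CPM + 1) difference, elav5 minus Canton-S, against the mean CPM over the 5 libraries on a log axis, with 1 point for each of the 9805 genes tested. The 903 genes higher in elav5 are red, the 1302 lower are blue and genes with an adjusted p above 0.05 are grey. elav (-4.36) lies lowest, MtnB (4.63) is the highest of the red points, and fne (0.02) lies on the zero line.

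The 15 largest rises were led by genes of metal binding, detoxification and metabolism. A pair of metallothioneins, small metal-binding proteins, came first. MtnB had 16.5 and 35.6 CPM in elav5 and 2.34, 2.09 and 10.5 CPM in elav5/fne, against 0, 0.0606 and 0 CPM in Canton-S (log2 difference 4.63, SE 0.56, limma adjusted p = 0.0021). Summed over libraries this was 1685 reads in elav5 and 2 reads in Canton-S, a depth-adjusted ratio of 1359 (95% counting interval 376 to 11228). MtnD had 15.1 and 30.6 CPM in elav5 and 0.0641, 0 and 0 CPM in Canton-S (log2 difference 4.47, SE 0.98, limma adjusted p = 0.016), or 1475 reads against 2, but its adjusted p was 0.094 without elav5 replicate 2. GstD2, a glutathione S-transferase, had 28.4 and 14.8 CPM in elav5 and 0.673, 0.787 and 1.02 CPM in Canton-S (log2 difference 3.56, SE 0.42, limma adjusted p = 0.0021). Pepck2, a phosphoenolpyruvate carboxykinase, had 27.1 and 24.4 CPM in elav5 and 1.09, 2.24 and 1.02 CPM in Canton-S (log2 difference 3.48, SE 0.33, limma adjusted p = 0.00084). In each of these genes the lowest elav5 value was well above the highest Canton-S value.

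The rise with the highest level among the 15 was Arc1, a synaptic protein derived from a retrotransposon Gag that forms capsids carrying its own RNA. Arc1 had 293 and 285 CPM in elav5 and 448, 305 and 383 CPM in elav5/fne, against 31.2, 44.7 and 34.3 CPM in Canton-S (log2 difference 2.96, SE 0.18, limma adjusted p = 0.00014). The elav5 libraries were close to each other, and both lay above all Canton-S libraries. The uncharacterised gene CG32581 had 31.6 and 40.00 CPM in elav5 and 3.04, 3.06 and 2.73 CPM in Canton-S (log2 difference 3.21, SE 0.15, limma adjusted p = 3.0e-05). Ppi1 had 13.9 and 9.94 CPM in elav5 and 0.160, 1.33 and 0.473 CPM in Canton-S (log2 difference 3.01, SE 0.33, limma adjusted p = 0.0016). ChLD3 had 11.9 and 6.38 CPM in elav5 and 0.256, 0.424 and 0.0526 CPM in Canton-S (log2 difference 2.98, SE 0.25, limma adjusted p = 0.00055). Ugt35B1, a UDP-glycosyltransferase, had 5.99 and 8.38 CPM in elav5 and 0.0961, 0.0908 and 0.105 CPM in Canton-S (log2 difference 2.88, SE 0.26, limma adjusted p = 0.00075). Several of the other rises depended on single libraries. Pgant4, which starts mucin-type O-glycosylation, had 3.73 and 27.6 CPM in elav5 and 0.256, 1.15 and 0.499 CPM in Canton-S, its log2 difference of 2.87 was 1.57 without elav5 replicate 2, and its adjusted p was 0.055 without Canton-S replicate 1. CG7203 had 60.1 and 13.5 CPM in elav5 and 2.63, 5.96 and 3.07 CPM in Canton-S, and its log2 difference of 2.67 was 1.63 without elav5 replicate 1. CG18649 (log2 difference 2.83) lost the call without either elav5 library (adjusted p up to 0.067), and CG6300 (2.77) lost it without any 1 Canton-S library or elav5 replicate 1 (adjusted p up to 0.11). CG13545 (2.63, adjusted p = 0.0061) and CG14377 (2.59, adjusted p = 0.0056) completed the 15.

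The 15 largest falls began with elav and included a collagen, an actin-bundling protein and a neuropeptide. The uncharacterised gene CG10936 had 9.29 and 4.16 CPM in elav5 and 93.2, 83.9 and 113 CPM in elav5/fne, against 127, 169 and 135 CPM in Canton-S (log2 difference -4.30, SE 0.27, limma adjusted p = 0.00015). Cln3, the fly counterpart of a lysosomal gene mutated in human Batten disease, had 0.965 and 0.359 CPM in elav5 and 28.3, 22.5 and 23.5 CPM in Canton-S (log2 difference -3.97, SE 0.41, limma adjusted p = 0.0012). Eip71CD, an ecdysone-induced methionine sulfoxide reductase, had 10.6 and 8.71 CPM in elav5 and 182, 133 and 118 CPM in Canton-S (log2 difference -3.75, SE 0.18, limma adjusted p = 3.8e-05). The elav5 and Canton-S values of these genes were far apart. Cyp6w1, a cytochrome P450, had 1.17 and 0.629 CPM in elav5 and 24.3, 19.8 and 19.02 CPM in Canton-S (log2 difference -3.54, SE 0.38, limma adjusted p = 0.0014). sn, the fly fascin that bundles actin filaments, had 9.42 and 10.6 CPM in elav5 and 149, 151 and 126 CPM in elav5/fne, against 102, 106 and 91.9 CPM in Canton-S (log2 difference -3.20, SE 0.11, limma adjusted p = 5.6e-06). Orcokinin, a neuropeptide precursor, had 5.33 and 2.34 CPM in elav5 and 40.7, 47.2 and 44.5 CPM in Canton-S (log2 difference -3.29, SE 0.27, limma adjusted p = 0.00052). Both elav5 libraries of sn were lower than all libraries of the other genotypes.

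Pcyt2, Vha36-3, santa-maria and Hsc70-2 were also among the 15 falls. Pcyt2, an enzyme of phosphatidylethanolamine synthesis, had 11.6 and 10.4 CPM in elav5 and 113, 97.8 and 83.4 CPM in Canton-S (log2 difference -3.04, SE 0.19, limma adjusted p = 0.00013). Vha36-3, a subunit of the vacuolar proton pump, had 19.4 and 10.7 CPM in elav5 and 128, 105.4 and 106 CPM in Canton-S (log2 difference -2.88, SE 0.21, limma adjusted p = 0.00028). It was the 1 fall among 18 vacuolar proton pump subunits tested, where the median log2 difference was 0.02, with 2 falls without elav5/fne replicate 3. None of them rose with limma or edgeR and 0 had an unadjusted p under 0.05 as a rise, while 2 rose with DESeq2 and 1 without elav5/fne replicate 1. santa-maria, a scavenger receptor of carotenoid uptake, had 11.8 and 6.68 CPM in elav5 and 76.9, 65.7 and 55.5 CPM in Canton-S (log2 difference -2.75, SE 0.23, limma adjusted p = 0.00051). Hsc70-2, a heat shock cognate protein, was low throughout, with 0.300 and 0.0599 CPM in elav5 and 5.73, 6.18 and 4.97 CPM in Canton-S (log2 difference -2.49, SE 0.17, limma adjusted p = 0.0002). The collagen IV gene vkg, also a hemocyte marker, was uneven. It had 138 and 8.71 CPM in elav5 replicates 1 and 2 and 367, 285 and 441 CPM in Canton-S (log2 difference -3.29, SE 0.96, limma adjusted p = 0.043). Its log2 difference was -5.21 without elav5 replicate 1 and -1.37 without elav5 replicate 2. The vkg call was lost without any 1 Canton-S library, elav5 replicate 2, or elav5/fne replicate 1 or 2 (adjusted p up to 0.16). CG11300 (log2 difference -3.72, adjusted p up to 0.085), CG13560 (-3.13, up to 0.12) and CG34278 (-2.82, up to 0.087) lost the call without Canton-S replicate 1 or 3 or either elav5 library. CG34278 rested on 1 read in elav5 against 743 in Canton-S, a Canton-S to elav5 ratio of 461 (95% counting interval 82.4 to 18222).

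**Figure D2:**
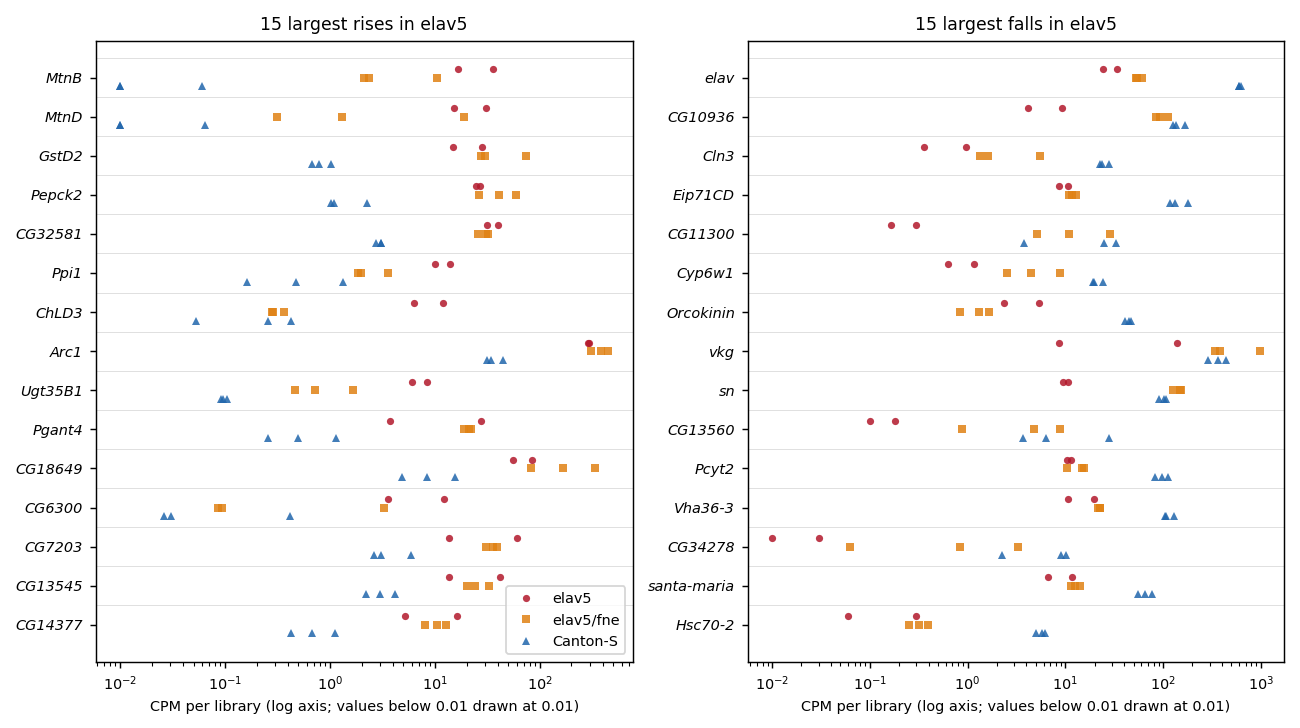
CPM per library on a log axis for the 15 largest rises (left) and 15 largest falls (right) in elav5, with elav5, elav5/fne and Canton-S libraries as separate points and values below 0.01 drawn at 0.01. Arc1 lies at 293 and 285 CPM in elav5 and at no more than 44.7 CPM in Canton-S, while CG10936 and sn are far lower in elav5 than in elav5/fne.

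The double mutant carries the same elav deletion, so each of the 30 genes was also tested between elav5 and elav5/fne in the same fit, where 43.4% of all genes differed. Of the 30, 12 differed and 18 did not pass the test. These genes were chosen for extreme elav5 values, which by itself favours a difference in that direction. Among the rises, MtnB, Ppi1, ChLD3, Ugt35B1 and CG6300 were higher in elav5 than in elav5/fne. ChLD3 had 11.9 and 6.38 CPM in elav5 and 0.280, 0.287 and 0.364 CPM in elav5/fne (log2 difference 2.90, SE 0.25, adjusted p = 5.6e-05). Ppi1 had 13.9 and 9.94 CPM in elav5 and 1.99, 3.59 and 1.85 CPM in elav5/fne (log2 difference 1.91, SE 0.33, adjusted p = 0.0024). The elav5/fne values of ChLD3 lay within the Canton-S range, and those of Ppi1 lay above it, between Canton-S and elav5. Among the falls, elav, CG10936, CG11300, Cyp6w1, vkg and sn were lower in elav5 than in elav5/fne, and Orcokinin was higher. The difference was largest for CG10936 (log2 difference -3.74, SE 0.27, adjusted p = 2.3e-05) and for sn (log2 difference -3.70, SE 0.11, adjusted p = 1.7e-06). In elav5/fne, sn lay above the Canton-S range, and CG10936 lay below it but far above elav5. The low elav5 values of CG10936 and sn did not recur in the 3 other libraries that carry the elav deletion.

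**Figure D3:**
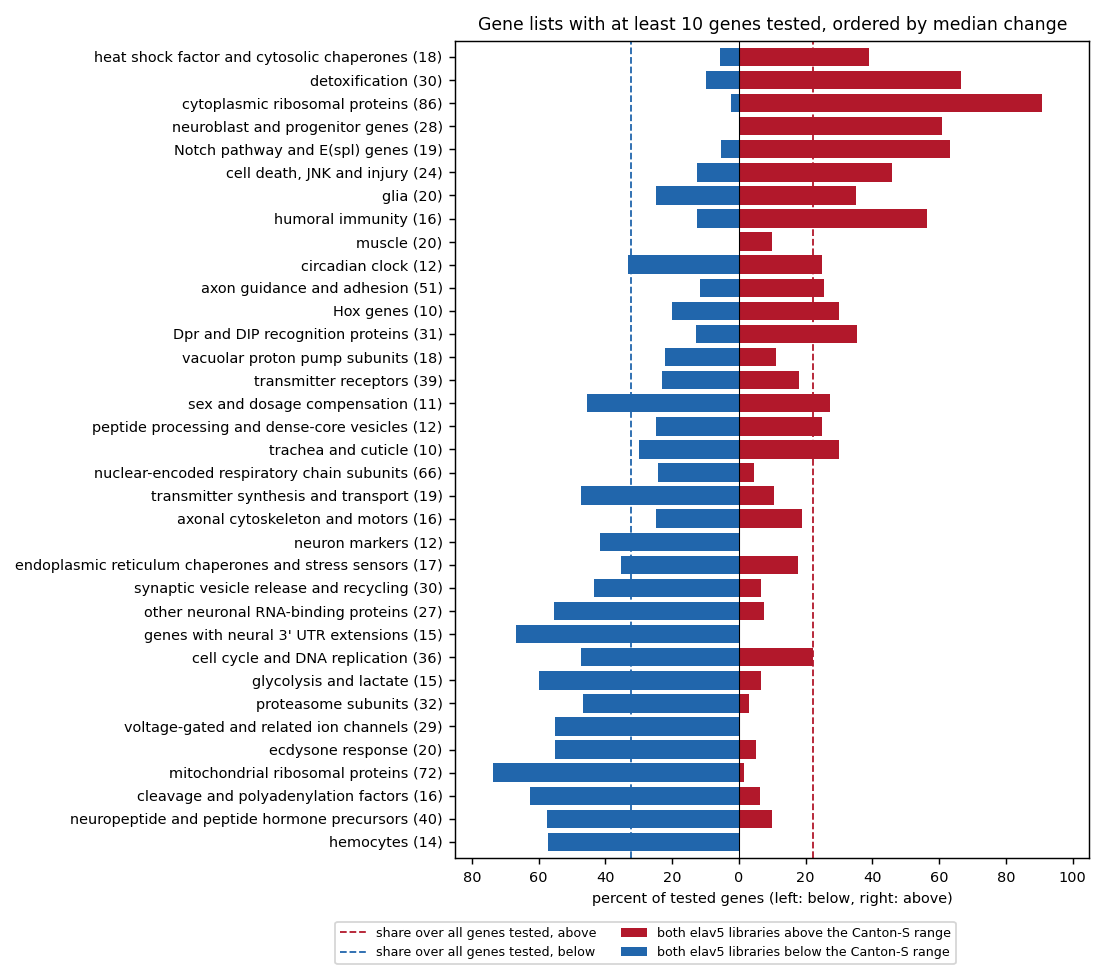
Percent of tested genes with both elav5 libraries above (red, to the right) or below (blue, to the left) the Canton-S range, for each gene list with at least 10 genes tested, ordered by the median log2 difference. Dashed lines mark the shares over all genes, 22.2% above and 32.4% below. Cytoplasmic ribosomal proteins reach furthest to the right (78 of 86 genes) and mitochondrial ribosomal proteins furthest to the left (53 of 72 genes).

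In the lists below where limma called no gene in a direction, between 0 and 4 genes had an unadjusted p under 0.05 in that direction, and 0 or 1 passed with edgeR and between 0 and 3 with DESeq2. Without 1 library, between 0 and 2 genes of such a list were called in that direction, apart from 6 respiratory chain genes. The lists hold general knowledge of fly genes, and their counts are read against the shares over all genes (9.21% higher and 13.3% lower by the test, 22.2% above and 32.4% below the Canton-S range).

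Neuropeptide and peptide hormone genes were lower in elav5 over a wide part of the list. Of 40 tested, 20 fell and none rose in elav5. The median log2 difference was -0.50, against -0.06 over all genes, and 23 lay below and 4 above the Canton-S range. The count was 17 with TMM or median-ratio scaling. It was 11 without Canton-S replicate 1, 9 without Canton-S replicate 2, 11 without elav5 replicate 1 and 12 without elav5 replicate 2, and 8 genes fell whichever library was left out: Orcokinin, Pdf, Pburs, Eh, natalisin, Ilp3, ITP and Ilp7. Pdf, the peptide of the circadian pacemaker neurons, had 10.7 and 7.13 CPM in elav5 and 0.312, 1.12 and 0.280 CPM in elav5/fne, against 44.4, 46.99 and 38.5 CPM in Canton-S (log2 difference -2.18, SE 0.26, limma adjusted p = 0.002). Pburs, a subunit of the cuticle-tanning hormone bursicon, had 1.56 and 1.59 CPM in elav5 and 8.62, 9.81 and 8.80 CPM in Canton-S (log2 difference -1.97, SE 0.14, limma adjusted p = 0.00023). ITP, the ion transport peptide, had 65.95 and 67.8 CPM in elav5 and 103.98, 119.8 and 124 CPM in Canton-S (log2 difference -0.78, SE 0.10, limma adjusted p = 0.003). For all of these the elav5 libraries lay below every Canton-S library.

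The other stable falls were of hormones made by small sets of neurons. Eh, the eclosion hormone, had 4.49 and 9.67 CPM in elav5 and 19.03, 17.9 and 21.3 CPM in Canton-S (log2 difference -1.41, SE 0.27, limma adjusted p = 0.011), and its log2 difference was -0.93 without elav5 replicate 1. natalisin had 16.3 and 22.2 CPM in elav5 and 40.9, 43.99 and 42.1 CPM in Canton-S (log2 difference -1.11, SE 0.16, limma adjusted p = 0.0044). Among the insulin-like peptides, Ilp7 had 7.09 and 7.31 CPM in elav5 and 12.04, 12.9 and 12.8 CPM in Canton-S, and Ilp3 had 0.533 and 0.898 CPM in elav5 and 3.24, 2.18 and 2.42 CPM in Canton-S. Ilp2 (log2 difference -1.23) and Ilp5 (-1.31) were also called, but lost the call in some of the fits without 1 library (adjusted p up to 0.078 and 0.13). Of 12 peptide processing genes, 2 rose and none fell (1 fell without elav5 replicate 1 or elav5/fne replicate 3, and 3 with quantile normalization), and the list's difference from the neuropeptides was not tested. The risen genes were svr, given above, and Phm, which amidates peptides, with 188 and 217 CPM in elav5 and 160.5, 153 and 162 CPM in Canton-S (log2 difference 0.35, SE 0.10, limma adjusted p = 0.039, up to 0.19 without 1 library). In bulk RNA, fewer cells of a type and less RNA per cell cannot be told apart, and of the 12 neuron markers elav and futsch passed the test as falls, with 4 falls without elav5 replicate 1 and 1 without Canton-S replicate 2 or elav5 replicate 2.

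**Figure D4:**
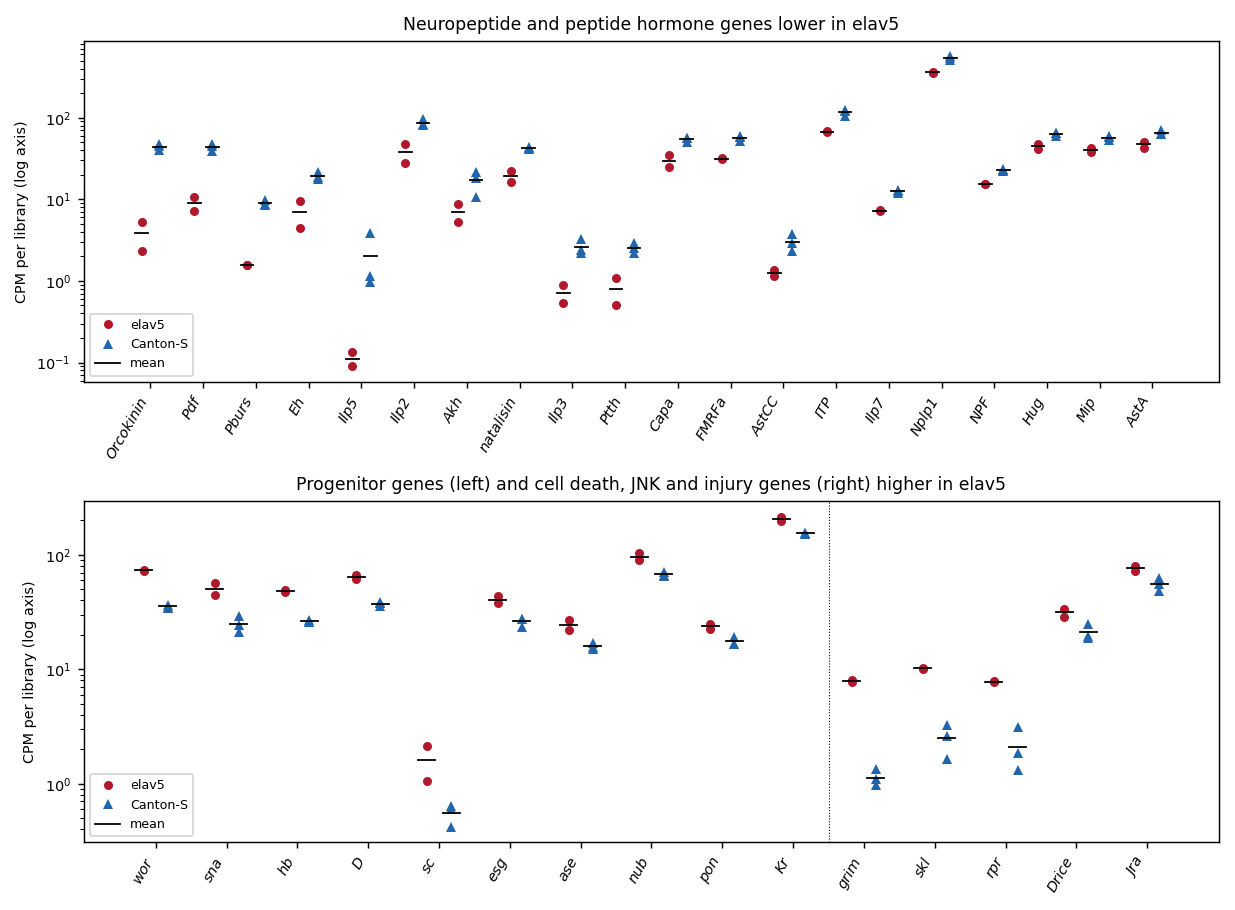
CPM per library on log axes for the 20 neuropeptide and peptide hormone genes lower in elav5 (top) and for the 10 progenitor genes and 5 cell death, JNK and injury genes higher in elav5 (bottom), with lines at the means. elav5 points lie below all Canton-S points in the top panel and above them in the bottom panel.

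Ion channel genes fell in part, synaptic vesicle genes by little. Of 29 voltage-gated and related ion channel genes, 10 fell and none rose (median log2 difference -0.26, with 16 below and 0 above the Canton-S range). The count was 7 with TMM or median-ratio scaling, 5 without Canton-S replicate 1 or 3 or elav5 replicate 2, 4 without Canton-S replicate 2 and 6 without elav5/fne replicate 2 or with edgeR. The 4 that fell whichever library was left out were Hk, NaCP60E, SK and Ca-beta. Hk, the Hyperkinetic beta subunit of Shaker potassium channels, had 97.7 and 73.95 CPM in elav5 and 171, 176 and 180.4 CPM in Canton-S (log2 difference -1.04, SE 0.12, limma adjusted p = 0.0021). NaCP60E, related to sodium channels, had 493 and 413 CPM in elav5 and 658, 689 and 661 CPM in Canton-S (log2 difference -0.57, SE 0.09, limma adjusted p = 0.0061). SK, a calcium-activated potassium channel, had 267 and 221 CPM in elav5 and 370.3, 358 and 364 CPM in Canton-S (log2 difference -0.58, SE 0.10, limma adjusted p = 0.0076). Ca-beta, a calcium channel subunit, had 279 and 233 CPM in elav5 and 353, 336 and 353 CPM in Canton-S (log2 difference -0.44, SE 0.09, limma adjusted p = 0.012). In each the higher elav5 value was below the lowest Canton-S value.

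Of 30 synaptic vesicle release and recycling genes, 6 fell and none rose (median -0.16), all by less than 0.5 log2 units. These were Syx1A and Rop of the fusion machinery, lap, shi and Dap160 of endocytosis, and cpx, the fusion clamp complexin. Syx1A had 608 and 584 CPM in elav5 and 748, 755 and 768 CPM in Canton-S (log2 difference -0.35, SE 0.08, limma adjusted p = 0.016), but its adjusted p reached 0.053 when 1 library was left out. None of the 6 stayed called throughout: the count was 2 with TMM, 0 with median-ratio scaling, 2 with edgeR and 3 with DESeq2, 0 without Canton-S replicate 1, 1 without Canton-S replicate 2 or elav5 replicate 2, 2 without Canton-S replicate 3, 3 without elav5/fne replicate 1 or 2, and 9 without elav5 replicate 1. Transmitter synthesis and transport gave 4 falls and 1 rise among 19 genes, or 2 falls with TMM scaling, quantile normalization, edgeR or DESeq2 and 1 with median-ratio scaling. There was 1 fall without Canton-S replicate 1 or elav5 replicate 2, and there were 2 without Canton-S replicate 2 or 3 or elav5 replicate 1, which also gave 2 rises. Ddc, the decarboxylase that makes dopamine and serotonin, fell to 96.9 and 90.8 CPM in elav5, against 201, 176 and 199.8 CPM in Canton-S (log2 difference -1.02, SE 0.11, limma adjusted p = 0.0015). Eaat1, the glial glutamate transporter, rose to 1173 and 1183 CPM in elav5, against 854, 811 and 808 CPM in Canton-S (log2 difference 0.52, SE 0.10, limma adjusted p = 0.01). Eaat1 is itself a glial marker, and the summed CPM of 20 glial markers was 7847 and 8127 in elav5 and 6972 to 7278 in Canton-S, a shift whose part in the rise was not tested. The 39 transmitter receptor genes held 2 rises and 2 falls, or 4 falls without elav5 replicate 1. Lcch3, a GABA receptor-like subunit, had 129 and 159 CPM in elav5 and 74.99, 79.5 and 74.2 CPM in Canton-S (log2 difference 0.90, SE 0.10, limma adjusted p = 0.0019), and nAChRalpha7, a nicotinic subunit, had 195 and 191 CPM in elav5 and 333, 355 and 343 CPM in Canton-S (log2 difference -0.83, SE 0.11, limma adjusted p = 0.0028). The rise of 5-HT2A (log2 difference 0.55) was lost without elav5 replicate 2 (adjusted p = 0.063) and the fall of mGluR (-0.39) without Canton-S replicate 1 (adjusted p = 0.051).

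Of 51 axon guidance and adhesion genes, 6 rose and 1 fell, with a median log2 difference of 0.07 that ranged between -0.05 and 0.19 when 1 library was left out. The number of rises was 2 without Canton-S replicate 1 or 2 or elav5 replicate 1, 3 without elav5/fne replicate 2 and 11 with DESeq2. There were 4 falls without elav5 replicate 1, more than the rises, and none without Canton-S replicate 1 or 2, elav5 replicate 2 or elav5/fne replicate 1 or 2, or with TMM scaling, median-ratio scaling, quantile normalization or edgeR. The stable rises were bdl, an immunoglobulin adhesion protein, with 66.1 and 60.4 CPM in elav5 and 40.9, 37.7 and 42.6 CPM in Canton-S (log2 difference 0.63, SE 0.10, limma adjusted p = 0.0061), and NetA, a secreted Netrin, with 54.1 and 47.6 CPM in elav5 and 36.04, 32.4 and 34.4 CPM in Canton-S (log2 difference 0.55, SE 0.09, limma adjusted p = 0.0074). Among 31 Dpr and DIP recognition proteins, which match synaptic partners, DIP-delta alone was called, with 115.02 and 106 CPM in elav5 and 50.1, 43.3 and 44.3 CPM in Canton-S (log2 difference 1.25, SE 0.14, limma adjusted p = 0.0015), while 4 rises and 1 fall were called without elav5/fne replicate 3. Of 16 genes of the axonal cytoskeleton and motors, tau rose (log2 difference 0.53, SE 0.10, adjusted p = 0.01), while futsch, the fly MAP1B (log2 difference -0.68, SE 0.15, adjusted p = 0.016), and alphaTub84D (log2 difference -0.46, SE 0.10, adjusted p = 0.019) fell. The call of tau was lost without elav5 replicate 2, that of futsch without Canton-S replicate 2 or elav5 replicate 2, and that of alphaTub84D without Canton-S replicate 1 or 2 or elav5 replicate 1 (adjusted p up to 0.051, 0.056 and 0.083), and without Canton-S replicate 2 the list had 2 rises and 0 falls. None of the 10 Hox genes passed the test with limma or edgeR, 1 did with DESeq2, 3 had an unadjusted p under 0.05 (1 higher, 2 lower), and 2 fell without elav5 replicate 1 and 2 rose without elav5/fne replicate 3.

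Genes of neural progenitors were higher in elav5. Of 28 neuroblast and progenitor genes, 10 rose and none fell (median log2 difference 0.42), and 17 lay above and 0 below the Canton-S range. The number of rises ran from 7 to 12 when 1 library was left out, and 2 genes fell without elav5 replicate 1. wor and sna, Snail-family transcription factors of neuroblasts, rose whichever library was left out. wor had 73.3 and 72.6 CPM in elav5 and 131, 120.2 and 88.3 CPM in elav5/fne, against 35.01, 36.5 and 34.5 CPM in Canton-S (log2 difference 1.02, SE 0.15, limma adjusted p = 0.0049). sna had 56.6 and 44.8 CPM in elav5 and 140.3, 127 and 104.9 CPM in elav5/fne, against 24.5, 21.2 and 29.1 CPM in Canton-S (log2 difference 1.00, SE 0.17, limma adjusted p = 0.0077). The temporal identity factor hb had 47.2 and 49.1 CPM in elav5 and 26.8, 26.04 and 25.6 CPM in Canton-S (log2 difference 0.86, SE 0.16, limma adjusted p = 0.0091), and D, a Sox factor, had 61.6 and 67.1 CPM in elav5 and 38.9, 35.6 and 37.8 CPM in Canton-S (log2 difference 0.77, SE 0.14, limma adjusted p = 0.0082). Both lost the call without elav5 replicate 2 (adjusted p = 0.051 and 0.051). The remaining rises were ase, sc, esg, nub, Kr and pon, with log2 differences between 0.42 and 0.72. Notch pathway and E(spl) genes gave 4 rises and no fall among 19 (median 0.41), with 12 above and 1 below the Canton-S range. E(spl)m7-HLH, a repressor induced by Notch, had 3.33 and 7.48 CPM in elav5, 73.7, 58.5 and 35.9 CPM in elav5/fne and 1.57, 0.999 and 0.893 CPM in Canton-S (log2 difference 1.51, SE 0.36, limma adjusted p = 0.022). The others were E(spl)m3-HLH and the Bearded family members Brd and Tom, which restrain Notch ligand signalling. None of the 4 stayed called throughout: the count was 2 without Canton-S replicate 1 or elav5/fne replicate 2, 1 without Canton-S replicate 2, 0 without Canton-S replicate 3 or elav5 replicate 2, and 8 without elav5/fne replicate 3, which also gave 1 fall. Without elav5 replicate 1 there were 5 rises and 2 falls, and edgeR gave 7 rises and DESeq2 9.

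Cell cycle genes were called both ways, with rises near the share over all genes. Of 36 cell cycle and DNA replication genes, 4 rose and 8 fell in elav5 (median -0.21). Of these 36, 8 lay above and 17 below the Canton-S range. Over all genes, 9.21% rose by the test and 22.2% lay above the range. dap, a p21/p27-type inhibitor of cyclin E kinase, had 52.9 and 61.4 CPM in elav5 and 292, 269 and 215 CPM in elav5/fne, against 20.2, 19.1 and 21.9 CPM in Canton-S (log2 difference 1.44, SE 0.14, limma adjusted p = 0.00084). stg, the Cdc25 phosphatase that drives mitotic entry, had 32.99 and 32.2 CPM in elav5 and 122, 107 and 83.3 CPM in elav5/fne, against 17.1, 15.3 and 14.1 CPM in Canton-S (log2 difference 1.03, SE 0.16, limma adjusted p = 0.0055). For both genes elav5 lay between Canton-S and the double mutant. E2f1, a transcription factor of S phase entry, fell to 91.5 and 79.7 CPM in elav5, against 118, 123 and 142 CPM in Canton-S (log2 difference -0.57, SE 0.10, limma adjusted p = 0.0076), and Mcm2, of the replicative helicase, to 8.36 and 8.80 CPM, against 13.1, 16.7 and 13.5 CPM (log2 difference -0.68, SE 0.13, limma adjusted p = 0.012). The falls of Mcm3, Mcm5, Mcm6, Orc2, PCNA and pav did not hold in every fit: the number of falls was 5 without Canton-S replicate 1, 3 without Canton-S replicate 2 and 2 without elav5 replicate 2, where the number of rises was 2.

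The pro-apoptotic genes grim, rpr and skl rose together. They are neighbours in the genome, and their products release caspases by blocking the inhibitor Diap1. grim had 8.06 and 7.66 CPM in elav5 and 42.2, 33.6 and 30.8 CPM in elav5/fne, against 1.09, 1.33 and 0.972 CPM in Canton-S (log2 difference 2.06, SE 0.17, limma adjusted p = 0.00045). skl had 10.4 and 10.1 CPM in elav5 and 42.4, 32.7 and 29.2 CPM in elav5/fne, against 3.24, 1.63 and 2.63 CPM in Canton-S (log2 difference 1.71, SE 0.23, limma adjusted p = 0.0035). rpr had 7.86 and 7.72 CPM in elav5 and 30.6, 24.9 and 23.4 CPM in elav5/fne, against 1.86, 3.12 and 1.31 CPM in Canton-S (log2 difference 1.55, SE 0.24, limma adjusted p = 0.0056). All 3 were called whichever library was left out, and in each the elav5 values lay above Canton-S and below the double mutant. The whole list of death, JNK and injury genes (24 tested) had 5 rises and 1 fall (median 0.26), and 11 lay above and 3 below the Canton-S range. Drice, an effector caspase (log2 difference 0.56, SE 0.14, adjusted p = 0.025), and Jra, the fly Jun (log2 difference 0.46, SE 0.12, adjusted p = 0.027), were the other rises, and Nmnat, which protects axons, was the fall (log2 difference -0.52, SE 0.12, adjusted p = 0.019). These 3 lost the call in some fits without 1 library (adjusted p up to 0.13, 0.13 and 0.065), and 3 rises and no fall were called without Canton-S replicate 1 or elav5 replicate 2. With TMM or median-ratio scaling or edgeR 8 genes rose, and 12 did with DESeq2. There were 2 falls without elav5/fne replicate 3 and none with quantile normalization.

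Many detoxification genes were higher in elav5. Of 30 tested, 15 rose and 2 fell (median log2 difference 0.92), with 20 above and 3 below the Canton-S range. The number of rises was 9 without Canton-S replicate 1 or elav5 replicate 1, and 7 without elav5 replicate 2. The rises were of glutathione S-transferases and Cyp6 cytochrome P450s. GstE1 had 53.03 and 73.4 CPM in elav5 and 177, 135 and 164 CPM in elav5/fne, against 6.79, 10.7 and 13.8 CPM in Canton-S (log2 difference 2.52, SE 0.26, limma adjusted p = 0.0012). GstE6 had 28.6 and 33.3 CPM in elav5 and 7.08, 9.23 and 5.73 CPM in Canton-S (log2 difference 1.95, SE 0.21, limma adjusted p = 0.0013). Cyp6a23 had 12.7 and 10.6 CPM in elav5 and 3.08, 3.06 and 3.15 CPM in Canton-S (log2 difference 1.62, SE 0.16, limma adjusted p = 0.00099). These genes belong to clusters of similar copies, so how reads were shared between copies is uncertain. The falls were Cyp6w1, given above, and Keap1, the inhibitor of the oxidative stress factor CncC, with 22.04 and 18.7 CPM in elav5 and 48.2, 39.3 and 43.2 CPM in Canton-S (log2 difference -1.06, SE 0.15, limma adjusted p = 0.0044).

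Stress and immune lists were uneven. No gene among 18 of the heat shock factor and cytosolic chaperones rose by limma or edgeR, 2 did by DESeq2 and 4 had an unadjusted p under 0.05, and the median log2 difference was 1.11, between 0.54 and 1.87 when 1 library was left out. Hsp70Aa had 96.4 and 342 CPM in elav5 replicates 1 and 2 and 14.8, 165 and 89.3 CPM in Canton-S, and Hsp23 had 215 and 729 CPM in elav5 and 57.4, 273 and 139 CPM in Canton-S. The elav5 libraries thus differed from each other more than 2-fold in these genes, and so did the Canton-S libraries. The 1 fall of this list was Hsp60A, a mitochondrial and not a cytosolic chaperonin. It fell to 207 and 240.3 CPM in elav5, against 332, 449 and 346 CPM in Canton-S (log2 difference -0.74, SE 0.13, limma adjusted p = 0.0091). Of 17 endoplasmic reticulum chaperones and stress sensors, Hrd3, Calr, Gp93 and Manf fell and none rose, but the number of falls was 0 without Canton-S replicate 1, 1 without Canton-S replicate 2 or elav5 replicate 1, and 2 without elav5 replicate 2. Of 16 humoral immunity genes, 3 rose and 1 fell. dl, the NF-kB factor Dorsal, had 63.2 and 46.3 CPM in elav5 and 423, 344 and 342 CPM in elav5/fne, against 22.4, 29.9 and 28.7 CPM in Canton-S (log2 difference 0.99, SE 0.17, limma adjusted p = 0.0079). cact, the inhibitor that holds Dorsal in the cytoplasm, had 291 and 297 CPM in elav5 and 227, 216 and 232 CPM in Canton-S (log2 difference 0.39, SE 0.07, limma adjusted p = 0.011). The rise of PGRP-LF (log2 difference 0.94) and the fall of Sting (-0.65) did not hold without every library (adjusted p up to 0.21 and 0.062).

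Genes of RNA processing were lower in part. Of 16 cleavage and polyadenylation factors, 8 fell and none rose (median log2 difference -0.43), and 10 lay below and 1 above the Canton-S range. CstF50 had 6.16 and 6.23 CPM in elav5 and 3.89, 5.48 and 5.01 CPM in elav5/fne, against 14.2, 15.8 and 11.5 CPM in Canton-S (log2 difference -1.03, SE 0.18, limma adjusted p = 0.0078), and fell whichever library was left out. The others were Cpsf6, Cpsf73, Cpsf160, CstF64, Fip1, Sym and Pabp2, with log2 differences between -0.79 and -0.41. The count was 3 without Canton-S replicate 1 or 2 or either elav5 library, and 5 without Canton-S replicate 3. Of 15 genes whose transcripts carry long neural 3′ untranslated regions, 3 fell and none rose (median -0.19), and 10 lay below and 0 above the Canton-S range. mei-P26, a translational regulator, had 521 and 470.2 CPM in elav5 and 876, 958 and 969 CPM in Canton-S (log2 difference -0.91, SE 0.08, limma adjusted p = 0.00075). shep, an RNA-binding protein of neuronal remodelling, had 1231 and 1076 CPM in elav5 and 1742, 1658 and 1675 CPM in Canton-S (log2 difference -0.56, SE 0.09, limma adjusted p = 0.0068). Adar, the RNA editing enzyme, had 188 and 186 CPM in elav5 and 221, 241 and 241 CPM in Canton-S (log2 difference -0.32, SE 0.09, limma adjusted p = 0.043), and its adjusted p reached 0.13 in the fits without 1 library. The list had 5 falls without elav5 replicate 1.

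Among 27 other neuronal RNA-binding proteins, shep included, 5 fell and 1 rose (median -0.17). Fmr1, the fly counterpart of the fragile X protein, had 118 and 95.7 CPM in elav5 and 182, 187 and 163 CPM in Canton-S (log2 difference -0.73, SE 0.11, limma adjusted p = 0.0045). Hrb27C and sqd, abundant heterogeneous nuclear RNA-binding proteins, had 889 and 800.0 CPM and 320.3 and 316 CPM in elav5, against 1259.6, 1333 and 1216 CPM and 441, 493 and 418 CPM in Canton-S (log2 differences -0.59 and -0.50, adjusted p = 0.0051 and 0.0072). These 4 falls held whichever library was left out. The rise was of mbl, the fly muscleblind (log2 difference 0.45, adjusted p = 0.014 and up to 0.057 without 1 library).

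Cytoplasmic and mitochondrial ribosomal protein genes moved in opposite directions. Of 86 cytoplasmic ribosomal protein genes, 68 rose and 2 fell in elav5 (median log2 difference 0.46), and 78 lay above and 2 below the Canton-S range. RpL31 had 837 and 1096 CPM in elav5 and 1121, 1061 and 1022 CPM in elav5/fne, against 578, 597 and 604 CPM in Canton-S (log2 difference 0.69, SE 0.12, limma adjusted p = 0.0073). RpL28 had 623 and 825 CPM in elav5 and 455, 462 and 476 CPM in Canton-S (log2 difference 0.63, SE 0.11, limma adjusted p = 0.0092). The 2 falls were of RpLP0-like and RpS19b, a ribosome assembly factor and a tissue-restricted copy, with 1 fall without elav5 replicate 1 and 0 without Canton-S replicate 1 or elav5 replicate 2. The shift was small and differed between the elav5 libraries, with a median of 0.27 without elav5 replicate 2. The number of rises was 10 without Canton-S replicate 1, 27 without Canton-S replicate 2 or elav5 replicate 2, 26 without Canton-S replicate 3 and 45 without elav5/fne replicate 2, and 10 genes rose whichever library was left out. Several ribosomal protein genes have near-identical copies or pseudogenes, and reads that fit more than 1 copy make single values uncertain.

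Of 72 mitochondrial ribosomal protein genes, 23 fell and none rose (median -0.39), and 53 lay below and 1 above the Canton-S range. mRpL19 had 14.05 and 14.1 CPM in elav5 and 22.6, 25.2 and 21.02 CPM in Canton-S (log2 difference -0.66, SE 0.12, limma adjusted p = 0.0083). mRpS10 had 12.8 and 12.2 CPM in elav5 and 21.2, 23.4 and 21.8 CPM in Canton-S (log2 difference -0.78, SE 0.14, limma adjusted p = 0.0084). Along with mRpL32, mRpL48 and mRpL49 these fell whichever library was left out. The number of falls was 7 without Canton-S replicate 1 or 2, 13 without Canton-S replicate 3, 5 without elav5 replicate 1, 14 without elav5/fne replicate 2, 10 with quantile normalization and 14 with edgeR. The 66 nuclear-encoded respiratory chain subunits had a median of -0.06, that of all genes, with 2 falls and no rise, or 0 falls without Canton-S replicate 1 or elav5 replicate 2. Without elav5 replicate 1 there were 6 rises and 1 fall, without elav5/fne replicate 3 there were 1 rise and 5 falls, and the count of falls was 1 in the other fits that moved it (without Canton-S replicate 2 or 3 or elav5/fne replicate 2, with TMM or median-ratio scaling, edgeR or DESeq2). DESeq2 gave 3 rises. Proteasome subunits gave 6 falls and 1 rise among 32 (median -0.25). Rpn2, of the regulatory particle, had 46.6 and 43.8 CPM in elav5 and 81.1, 84.98 and 71.9 CPM in Canton-S (log2 difference -0.79, SE 0.10, limma adjusted p = 0.0025). Prosbeta6, of the core particle, was the rise, with 53.9 and 60.1 CPM in elav5 and 32.3, 36.6 and 32.01 CPM in Canton-S (log2 difference 0.74, SE 0.10, limma adjusted p = 0.0042). Rpn2 alone of the falls held without Canton-S replicate 1 or 2 or elav5 replicate 1, where 1 fall was left.

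**Figure D5:**
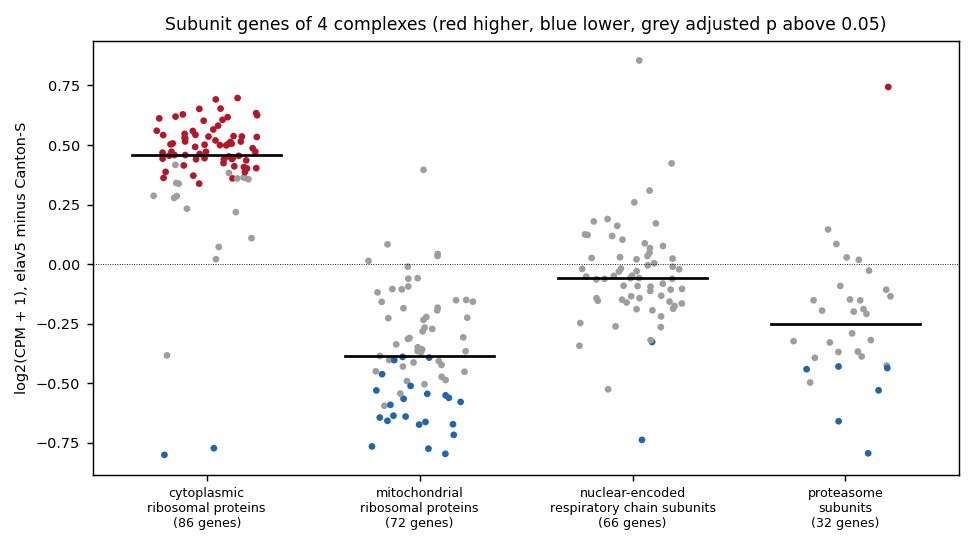
Log2(CPM + 1) difference, elav5 minus Canton-S, of each subunit gene of the cytoplasmic ribosome (86 genes), the mitochondrial ribosome (72), the nuclear-encoded respiratory chain (66) and the proteasome (32), with black lines at the medians. The medians are 0.46, -0.39, -0.06 and -0.25, and points are red where higher, blue where lower and grey where the adjusted p was above 0.05.

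Sugar metabolism and hormone response genes were lower in part. Of 15 glycolysis and lactate genes, 5 fell and none rose (median -0.22). Ldh, lactate dehydrogenase, had 1121 and 1262 CPM in elav5 and 454, 379 and 362 CPM in elav5/fne, against 1835, 1699 and 1843 CPM in Canton-S (log2 difference -0.59, SE 0.12, limma adjusted p = 0.012). Hex-A, hexokinase, had 419 and 424 CPM in elav5 and 203, 206 and 241 CPM in elav5/fne, against 609, 610.4 and 653 CPM in Canton-S (log2 difference -0.56, SE 0.09, limma adjusted p = 0.0063). Pfk, Tret1-1 and Pgk were the others, and the count was 2 without Canton-S replicate 1 or 2, and 3 without Canton-S replicate 3 or elav5 replicate 2 or with median-ratio scaling. Of 20 ecdysone response genes, 6 fell and none rose (median -0.30). Besides Eip71CD these were Hr3, Hr4, E23, Eip74EF and ImpL2, and Hr3, a nuclear receptor, had 4.79 and 6.08 CPM in elav5 and 9.13, 9.60 and 9.91 CPM in Canton-S (log2 difference -0.72, SE 0.16, limma adjusted p = 0.017, up to 0.073 without 1 library). The number of falls was 3 without Canton-S replicate 1 or elav5/fne replicate 2, and 2 without Canton-S replicate 2 or elav5 replicate 2. Enzymes of ecdysone synthesis, made in the ring gland attached to the brain, were lower too. spok had 2.96 and 1.98 CPM in elav5 and 2.84, 4.10 and 3.36 CPM in elav5/fne, against 10.7, 18.3 and 17.3 CPM in Canton-S (log2 difference -2.22, SE 0.26, limma adjusted p = 0.0019). sad had 1.96 and 0.509 CPM in elav5 and 4.39, 7.54 and 6.70 CPM in Canton-S (log2 difference -1.74, SE 0.30, limma adjusted p = 0.0078). The summed CPM of 9 ring gland markers was 40.1 and 17.9 in elav5 and 54.2 to 80.1 in Canton-S, and 4 of the 7 tested fell, or 2 without elav5 replicate 2. How much ring gland tissue each sample held was not tested.

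Genes of sex determination were also called, while clock genes lay outside the Canton-S range about as often as all genes. Of 12 circadian clock genes, 2 rose and 3 fell, and 3 lay above and 4 below the Canton-S range (22.2% and 32.4% over all genes). vri, a repressor of the clock loop, had 14.6 and 15.2 CPM in elav5 and 43.1, 36.99 and 37.7 CPM in elav5/fne, against 8.07, 9.17 and 7.12 CPM in Canton-S (log2 difference 0.81, SE 0.13, limma adjusted p = 0.0064). The rise of cry, the photoreceptor cryptochrome, was at low levels, with 1.63 and 1.65 CPM in elav5 and 0.833, 0.484 and 0.683 CPM in Canton-S (log2 difference 0.67, SE 0.17, limma adjusted p = 0.026, up to 0.094 without 1 library). The falls were of Pdp1, dco and sgg, and their number was 1 without Canton-S replicate 1 or 2 or elav5/fne replicate 1 or 2, 1 with TMM scaling, median-ratio scaling, quantile normalization, edgeR or DESeq2, and 0 without elav5 replicate 2. The number of rises was 1 with quantile normalization and without Canton-S replicate 2 or 3, either elav5 library or elav5/fne replicate 2. Of the 11 tested genes of sex determination and dosage compensation, 3 rose and 2 fell, all whichever library was left out. lncRNA:roX2 had 439 and 766 CPM in elav5 and 179, 169 and 176 CPM in Canton-S (log2 difference 1.73, SE 0.20, limma adjusted p = 0.0019), and msl-2, made into protein in males, had 77.2 and 73.5 CPM in elav5 and 45.97, 42.6 and 47.2 CPM in Canton-S (log2 difference 0.72, SE 0.08, limma adjusted p = 0.0019). lncRNA:roX1 (log2 difference 1.22, adjusted p = 0.0015) was the third rise, and Sxl (-0.81, adjusted p = 0.00091) and fru (-1.44, adjusted p = 0.00091) were the falls.

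Of 20 glial markers, nrv1, nrv2, Eaat1 and htl rose and Mdr65 and Nrx-IV fell, and nrv1 and Eaat1 held whichever library was left out. nrv1, a sodium pump subunit, had 99.3 and 91.9 CPM in elav5 and 47.7, 45.9 and 43.7 CPM in Canton-S (log2 difference 1.05, SE 0.08, limma adjusted p = 0.00038). The number of glial rises was 2 without Canton-S replicate 1 or elav5 replicate 2, and that of falls was 0 without any 1 Canton-S library or elav5/fne replicate 2, 1 without elav5 replicate 2 or elav5/fne replicate 1 and 5 without elav5 replicate 1. It was 1 with TMM or median-ratio scaling and 0 with edgeR. Of 14 hemocyte markers, Pxn, NimC2 and vkg fell and 8 lay below the Canton-S range. None of these falls held throughout: 0 were called without Canton-S replicate 1 or 2 or elav5 replicate 2, 1 without Canton-S replicate 3 or elav5/fne replicate 1 or 2, 7 without elav5 replicate 1 and 6 without elav5/fne replicate 3, and 1 with edgeR or DESeq2. Col4a1, the partner of vkg in collagen IV, had 179 and 12.5 CPM in elav5 replicates 1 and 2 and 395, 315 and 481 CPM in Canton-S, and its adjusted p was 0.055. None of the 20 muscle markers or the 5 salivary gland markers passed the test with limma or edgeR, 1 of each list passed with DESeq2, and 1 muscle and 2 salivary gland markers had an unadjusted p under 0.05. Among germline markers, vas alone was called, with 3.90 and 4.13 CPM in elav5 and 1.03, 0.878 and 0.736 CPM in Canton-S (log2 difference 1.42, SE 0.13, limma adjusted p = 0.00081). Of the other marker lists, 1 of 8 gut markers and 1 of 8 eye disc and photoreceptor markers rose, and 1 of 2 fat body and 2 of 10 trachea and cuticle markers fell. The gut, eye and fat body calls did not hold whichever library was left out, and trachea and cuticle markers gave 1 fall without elav5 replicate 2.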

How the data were processed

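Total RNA of dissected first instar central nervous systems was made into libraries with a stranded total RNA kit from 0.1 µg RNA, per the labels' protocols. The authors deposited scaled read counts per gene as CPM. HISAT2 and the genome build dm6 are named in the submitters' processing notes, without a version, and a counter, annotation or strand setting is not given in the sources used here. CPM values above 0 were whole multiples of 1 read (100% within 0.01 reads), so the reads were recovered for the count tests. Where the counting ignored strand, overlapping and antisense genes cannot be told apart, and copies of a gene may share reads.

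The 9805 genes that passed the filter (1 CPM in 2 or more of the 5 elav5 and Canton-S libraries) were tested with limma 3.58.1 in R 4.3.3, with a mean-variance trend, on log2(CPM + 1), which understates changes of low genes. All 8 libraries entered, with 3 genotype means, since elav5 has 2 libraries. P-values were adjusted by Benjamini and Hochberg over these genes, and the threshold was an adjusted p of 0.05. Just inside the filter, lncRNA:CR45793 had 1.43 and 1.02 CPM in elav5 and 0.192, 0.484 and 0.473 CPM in Canton-S, and just outside it lobo had 1.43 and 0.838 CPM in elav5 and 0.737, 0.999 and 0.972 CPM in Canton-S. The fit was tested on simulated data. Alternatives were pseudocounts of 0.1 and 5, a mean of at least 5 CPM as filter or none, TMM, median-ratio and quantile scaling, edgeR 4.0.16 (quasi-likelihood) and DESeq2 1.42.0 on the reads, no trend, only the 5 libraries, a replicate block, and each library left out. Counting intervals cover counting error only.

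Named genes are the ELAV/Hu family, the 15 largest coding rises and falls among called genes with a mean of at least 5 CPM in elav5 or Canton-S, up to 4 called genes with the smallest p per list, the top 2 of each marker list, sex genes, known splicing targets and neighbours of elav. Further genes were named after their values were seen, mostly because their call held whichever library was left out or because they make up a list's calls. The comparison, members and lists were chosen with earlier results of these data known. Of 798 list entries, 2 matched no gene, and 17710 of 17807 gene IDs were in the BDGP6 annotation.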

Additional observations from a re-analysis of the deposited data

How the results depend on the processing

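For the genes higher and lower in elav5, the alternatives of pseudocount, filter, scaling, trend, edgeR and the fit on only 5 libraries kept both counts within 1.5 times of 903 and 1302, and DESeq2 gave 1380 rises. Leaving out 1 library gave between 447 and 1107 rises and between 583 and 1538 falls. Without a filter, 3362 genes had both elav5 libraries above the Canton-S range, and leaving out 1 library gave between 2420 and 3284 above and between 3529 and 4387 below it, because fewer values set the range or had to pass it. Of the 30 genes with the largest changes, between 10 and 15 differed between elav5 and elav5/fne when 1 library was left out. The deviations of same-numbered elav5 and Canton-S libraries from their group means correlated at 0.0979 (replicate 1) and 0.0879 (replicate 2). With 2 elav5 libraries the deviations mirror each other, so these values cannot decide whether same-numbered libraries were handled together. The fit with the replicate block gave 516 rises and 622 falls. No named gene changed direction where either of the compared fits called it. Of 3061 values of named genes under the alternatives, 2714 kept direction and call, 288 lost the call and 18 gained it. The other 41 changed direction, with a call in neither fit. With 2 elav5 libraries and 3 reads near 0.1 CPM, changes below about 1 CPM were at the limit of depth.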

Other observations

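Noncoding RNAs and small RNAs, which the list of largest changes left out, held some of the strongest calls. snoRNA:U3:54Ab, a guide RNA of ribosomal RNA processing, had 10.8 and 13.98 CPM in elav5 and 207, 213 and 169 CPM in elav5/fne, against 152, 143 and 144 CPM in Canton-S (log2 difference -3.47, SE 0.13, limma adjusted p = 8.7e-06). Its neighbouring copy snoRNA:U3:54Aa had 55.00 and 69.2 CPM in elav5 and 124, 116 and 118 CPM in Canton-S (log2 difference -0.94), and reads may be shared between the copies. lncRNA:CR43242 was also far lower in elav5 than in both other genotypes, with 1.23 and 1.71 CPM in elav5 and 14.2, 14.4 and 14.9 CPM in elav5/fne, against 16.2, 15.4 and 16.8 CPM in Canton-S (log2 difference -2.80, SE 0.13, limma adjusted p = 3.0e-05). asRNA:CR45822 had 0.0666 and 0.120 CPM in elav5 and 0.0623, 0.143 and 0 CPM in elav5/fne, against 6.86, 7.69 and 7.15 CPM in Canton-S (log2 difference -2.91, SE 0.15, limma adjusted p = 4.6e-05). In both mutants it was near the depth limit, and its neighbour pst fell too, with 16.6 and 18.9 CPM in elav5 and 87.5, 80.1 and 79.8 CPM in Canton-S (log2 difference -2.15, SE 0.20, limma adjusted p = 0.00077). lncRNA:CR46123 rose to 18.01 and 17.3 CPM in elav5, but had 0, 0 and 0.0280 CPM in elav5/fne and 0, 0.0303 and 0 CPM in Canton-S (log2 difference 4.21, SE 0.14, limma adjusted p = 5.6e-06). That rise did not recur in the elav5/fne libraries. lncRNA:CR45900 rose in both mutants, to 17.2 and 18.9 CPM in elav5 and 18.97, 14.9 and 13.6 CPM in elav5/fne, against 0, 0.0303 and 0 CPM in Canton-S (log2 difference 4.24, SE 0.17, limma adjusted p = 9.6e-06). These genes were chosen after their values were seen, and small RNAs are recovered unevenly by total RNA libraries.

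Some of the large changes lay in neighbouring genes. Among called genes changed by at least 1 log2 unit, 51 neighbouring pairs changed the same way, and pairs that changed in opposite ways are not listed here. Cln3 (log2 difference -3.97) fell along with CG32191 (-1.96), CG32187 (-1.10) and CG5589 (-1.15) next to it. Ppi1 rose with CG31029 (1.81) and Pgant4 with CG31776 (1.08), and Hsc70-2 fell with CG31157 (-1.32). The part of line differences in such runs was not tested. Next to Arc1, CR10102 had 34.3 and 33.5 CPM in elav5 and 2.53, 4.27 and 2.97 CPM in Canton-S (log2 difference 3.06, SE 0.21, limma adjusted p = 0.00023), and Arc2 had 4.93 and 4.73 CPM in elav5 and 1.47, 1.15 and 0.815 CPM in Canton-S (log2 difference 1.45, SE 0.22, limma adjusted p = 0.0051). Irc, a catalase-related gene of gut immunity, was among the most abundant large rises, with 267 and 301 CPM in elav5 and 366, 414 and 412 CPM in elav5/fne, against 38.4, 54.9 and 52.7 CPM in Canton-S (log2 difference 2.54, SE 0.15, limma adjusted p = 0.00012). CG8907, next to Irc, rose too (log2 difference 2.19). Another abundant rise was MtnA, a metallothionein, with 333 and 569 CPM in elav5 and 83.8, 85.3 and 97.2 CPM in Canton-S (log2 difference 2.29, SE 0.23, limma adjusted p = 0.00099). hoe1 fell to 140.4 and 119 CPM in elav5, against 430.0, 404 and 421 CPM in Canton-S (log2 difference -1.69, SE 0.11, limma adjusted p = 0.00016). The eye pigment transporter w, not tested because of its low level in elav5 and Canton-S, had 0.799 and 0.569 CPM in elav5 and 0.636 to 2.27 CPM in Canton-S, but 582 to 699.9 CPM in elav5/fne.

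Some genes set elav5 replicate 2 apart from every other library of the comparison. CG12934 had 1.30 and 612 CPM in elav5 replicates 1 and 2 and 0.384, 0.606 and 0.315 CPM in Canton-S, a log2 difference of 4.71 that did not pass the test (adjusted p = 0.2). CG43896 had 0.200 and 499 CPM in elav5 and 0.865, 2.15 and 0.526 CPM in Canton-S, and CG7298 had 2.50 and 359 CPM in elav5 and 3.94, 0.817 and 0.709 CPM in Canton-S. In Canton-S, the fat body gene Fbp1 likewise was high in 1 library, with 0.499 and 0.0299 CPM in elav5 and 0.769, 254 and 1.10 CPM in Canton-S.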
